A study of Mus musculus with 24 samples.

Results

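The 7 serpin genes described here are Serpina3g, of the Serpina3 cluster on mouse chromosome 12, and Serpinb1b, Serpinb9c, Serpinb9d, Serpinb9f, Serpinb9g and Serpinb9h, which lie beside each other on chromosome 13. How open their chromatin was had been measured by ATAC-seq, where an added transposase, Tn5, inserts tags into accessible DNA. A peak is a region where such cuts pile up. Every peak that the authors' table assigns to one of these genes was taken, which gave 24 of the table's 147020 peaks. Serpina3g and Serpinb9h had 6 peaks each, Serpinb1b had 4, Serpinb9d and Serpinb9f had 3 each, and Serpinb9c and Serpinb9g had 1 each. All 24 passed the filter on low counts, as did 146155 peaks of the whole table.

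The libraries came from NeuN-stained, sorted neuronal nuclei of frozen striatum of C57BL/6 mice aged 12 months. NeuN is a protein of most neuronal nuclei. There were 4 genotypes with 3 females and 3 males each, so 24 libraries. WT animals were wild type, and Q140 animals were heterozygous for the Q140 knock-in, an expanded CAG repeat in Htt, the huntingtin gene. Msh3KO animals (Msh3-/-) lacked Msh3, a DNA mismatch repair gene needed for such repeats to grow in somatic cells, and Q140_Msh3KO animals carried the Q140 knock-in and lacked Msh3. How long the repeat was in each animal is not given in the sources used here. The labels name no drug or other treatment for any group. In this text F1 to F3 are the females and M1 to M3 the males of a genotype.

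Serpins are proteins that trap proteases: the protease cuts an exposed loop, the serpin snaps into another shape, and both stay bound. Serpina3g is a clade A serpin known mainly from lymphocytes and myeloid cells, where it acts inside the cell on lysosomal cathepsins and is induced by interferon gamma. Clade B serpins also work inside cells. Serpinb1-type genes encode inhibitors of neutrophil proteases, and Serpinb9 encodes the inhibitor of granzyme B that protects cells holding or meeting this protease. Serpinb1b and Serpinb9c to Serpinb9h are mouse copies that arose by repeated duplication, and less is known of what their products inhibit. A peak shows open DNA and does not measure a transcript or a protein.

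The genes were chosen on the comparisons Q140 vs WT and Q140_Msh3KO vs Q140, so values of these 2 comparisons are given below as a description of the genes, without p-values. Q140_Msh3KO vs Msh3KO, Msh3KO vs WT, female vs male and the Q140 effect in females minus males were tested. The first of these shares the Q140_Msh3KO animals with a comparison used for choosing, and Msh3KO vs WT shares the WT animals. The Q140 effect in females minus males rests wholly on the Q140 and WT animals used for choosing, split by sex. Its test is therefore not independent of the choice. Msh3KO animals themselves took no part in the choice. A peak is said to be called where its Benjamini-Hochberg adjusted p, over all tested peaks, was under 0.05 in edgeR's quasi-likelihood test. Fold changes are on the log2 scale with their standard errors.

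Each library held 4372251 to 11736557 counts in peaks, and the 24 serpin peaks held 2 to 139 counts in a library, with a median of 18. Levels are given as CPM, counts scaled to a common library total, after TMM scaling. Inside the Msh3 gene, 25 tested peaks had a median log2 fold change of 0.76 in Msh3KO vs WT, and all 25 were above 0, with 4 called. The Serpinb cluster lies on the same chromosome as Msh3, 58.2 Mb away from the gene. A pair of libraries stood apart. X-chromosome peaks took 1.47% of the counts of Q140 F2, whereas all other females had 1.72% to 1.94% there and males 1.49% to 1.59%. The 10 highest peaks took 12.7% of the counts of Q140_Msh3KO M1, and 3.32% to 4.74% in its 5 genotype mates. Leaving out both gave log2 fold changes of -1.94 (Q140 vs WT) and 1.26 (Q140_Msh3KO vs Q140) at the Serpina3g start peak described below. Without them 12 of the 24 peaks were called lower in Q140 in place of 14.

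Promoter peaks, within 1 kb of a start, were examined for markers of the cell types that the sort could hold. All 3 neuronal markers and all 3 markers of striatal projection neurons had such peaks. Ppp1r1b, a phosphoprotein of striatal projection neurons, held a mean of 76.7 CPM, and Rbfox3, which encodes NeuN, held 29.7. None of 6 markers of T and NK cells had a promoter peak, and Cd3e, Cd8a, Ptprc and Gzmb were among those without. Away from promoters, 15 peaks were assigned to 4 of these 6 genes, with a median log2 fold change of -0.26 in Q140 vs WT, 2 called lower and 1 higher (6.11% and 4.20% of all tested peaks were). The lower ones lay 6.2 kb after the start of Cd8a, at -1.13 ± 0.23, and at -16.6 kb from Ptprc, at -0.46 ± 0.14, and the higher one in intron 2 of Ptprc, at 0.65 ± 0.18. Their part in the serpin values was not tested. Of 5 microglial markers only Tmem119 had a promoter peak. Its level ran from 2.17 to 4.34 CPM among WT animals and from 2.98 to 6.64 among Msh3KO animals. The Q140 range was 2.23 to 5.43 and the Q140_Msh3KO range 2.04 to 4.73, so the genotypes overlapped. Of 4 oligodendrocyte markers all had promoter peaks, and their summed medians were 32.4 CPM for WT, 30.8 for Msh3KO, 35.4 for Q140 animals and 34.4 for Q140_Msh3KO. In sorted bulk nuclei, fewer nuclei with an open region and less opening per nucleus cannot be told apart.

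The name Serpina3g covers more than that gene in the authors' annotation. The peak at chr12:104235249-104235766 has its centre 640 bases before the RefSeq start of Serpina3g and is called the Serpina3g start peak here. The other 5 peaks were assigned through the transcript NM_009251, and by RefSeq (GRCm38.p6) their nearest gene start is that of Serpina3f, the neighbouring gene of the same family. Of these, chr12:104213539-104214239 has its centre 655 bases before the RefSeq start of Serpina3f, and chr12:104190791-104191312 overlaps the pseudogene Serpina3e-ps. On chromosome 13 the peaks of Serpinb1b, Serpinb9c and Serpinb9d lie near or inside those genes. Serpinb9f, Serpinb9h and Serpinb9g have peaks only at 18.1 kb or more from their starts, in DNA that the authors' annotation gives as intergenic. By RefSeq, some of these peaks overlap the genes Gm40905, Gm40906 and Gm19155.

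The RefSeq promoters, from 250 bases before to 50 after a start, are shown for the genes whose start regions the data bear on. Serpinb1b is the only one of the 7 whose promoter lies inside a peak, with all 300 bases of chr13:33083853-33084152 (plus strand, GRCm38.p6). Capitals mark the bases from the annotated start on.
Serpinb1b: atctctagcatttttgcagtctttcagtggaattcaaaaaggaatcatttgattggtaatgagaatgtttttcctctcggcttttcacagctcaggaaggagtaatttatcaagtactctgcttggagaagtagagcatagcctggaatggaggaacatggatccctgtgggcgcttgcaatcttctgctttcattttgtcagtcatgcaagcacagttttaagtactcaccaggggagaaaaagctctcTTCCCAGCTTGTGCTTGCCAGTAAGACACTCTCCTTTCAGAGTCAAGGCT

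The promoters of Serpina3g (chr12:104235897-104236196) and Serpina3f (chr12:104214294-104214593), both on the plus strand, begin 130 and 54 bases after the nearest serpin peak. They are shown because the name of the lowest peaks turns on which of the genes they belong to. Aligned to each other they were identical at 169 of 202 gap-free positions, or 83.7%. Capitals mark matches to 4 motifs searched on both strands: the TATA box TATAAA, the interferon-gamma activated site TTCNNNGAA, the core GAAANNGAA of the interferon-stimulated response element, and the AP-1 site TGANTCA.
Serpina3g: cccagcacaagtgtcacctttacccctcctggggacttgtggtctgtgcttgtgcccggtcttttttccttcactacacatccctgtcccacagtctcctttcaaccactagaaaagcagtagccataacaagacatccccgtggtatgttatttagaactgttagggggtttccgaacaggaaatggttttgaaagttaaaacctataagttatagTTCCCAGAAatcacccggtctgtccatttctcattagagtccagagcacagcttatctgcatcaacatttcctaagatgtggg
Serpina3f: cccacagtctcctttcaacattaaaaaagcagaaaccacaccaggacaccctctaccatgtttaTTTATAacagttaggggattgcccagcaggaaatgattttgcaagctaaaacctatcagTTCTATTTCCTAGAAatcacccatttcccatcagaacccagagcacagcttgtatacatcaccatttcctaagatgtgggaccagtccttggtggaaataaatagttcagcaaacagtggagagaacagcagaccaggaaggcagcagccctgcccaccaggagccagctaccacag

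TTCNNNGAA matched once in Serpina3g, at position -33 from the start, and once in the Serpina3f promoter shown, the first of its 2 overlapping ones, at -121. In Serpina3f it shares 3 bases with a match to GAAANNGAA on the minus strand, and TATAAA matched on the minus strand at -186. Serpinb1b, Serpinb9d, Serpinb9f, Serpinb9h and Serpinb9g had no match to these motifs in their windows, and Serpinb9c had a TTCNNNGAA in 1 of its 2 promoters. Of all 32851 RefSeq promoters, 8.3% held TTCNNNGAA, 8.56% held GAAANNGAA, 13.6% held TATAAA and 7.81% held TGANTCA. Such matches are descriptions of the letters only.

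The Serpina3g start peak differed most between the genotypes. In WT it held 7.30 CPM in the lowest animal, 7.96 at the median and 8.91 in the highest, and in Msh3KO 4.65, 7.46 and 10.02. In Q140_Msh3KO the values were 3.65, 5.30 and 6.57 CPM, and in Q140 they were 1.29, 2.05 and 2.61. All 6 Q140 animals lay below all animals of every other genotype, all Q140_Msh3KO animals lay below all WT animals, and Q140_Msh3KO and Msh3KO overlapped. The mean was 8.12 ± 0.588 CPM for WT, 7.37 ± 1.99 for Msh3KO, 5.18 ± 1.22 for Q140_Msh3KO and 2.02 ± 0.498 for Q140 animals (SD, n = 6). Raw counts at this peak ran from 9 to 88 per library.

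The Q140 level of the start peak was 3.89-fold lower than WT, a log2 fold change of -1.96 ± 0.18. Between Q140 and Q140_Msh3KO it was 2.48-fold higher in the latter, at 1.31 ± 0.19. Against Msh3KO, Q140_Msh3KO animals gave -0.54 ± 0.16, which was not called (edgeR, adjusted p = 0.207). Msh3KO against WT gave -0.10 ± 0.16 (edgeR, adjusted p = 1). The Q140 effect with Msh3 present minus that without Msh3 was -1.42 ± 0.25 on the log2 scale. It is given without a test because it contains the Q140 vs WT difference that chose the genes. Split by sex, Q140 vs WT in these same choosing animals was -1.70 ± 0.25 in females and -2.28 ± 0.27 in males. Their difference of 0.58 ± 0.38 was not called (edgeR, adjusted p = 1.00).

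**Figure D1:**
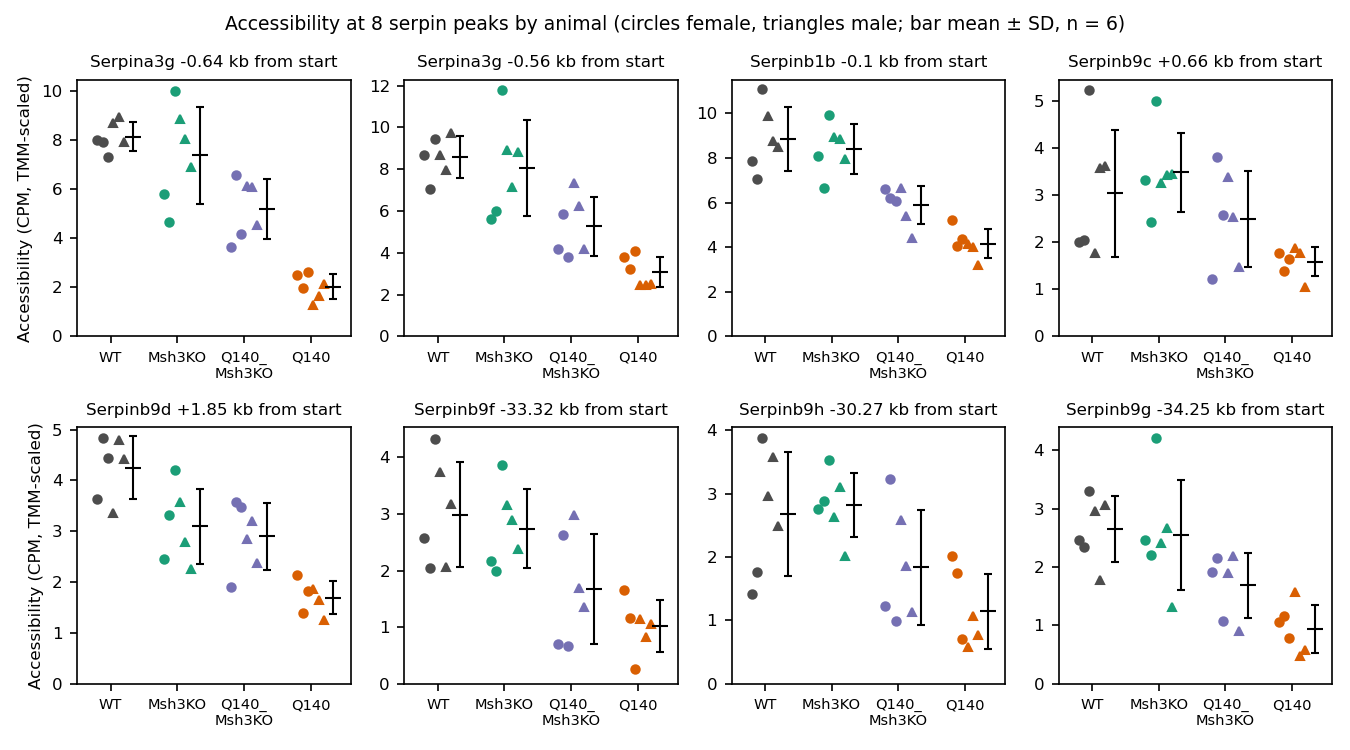
Accessibility in CPM (vertical axes from 0) at 8 serpin peaks, with 1 point per animal (circles females, triangles males) and the mean ± SD of 6 animals per genotype. At the Serpina3g peak at -0.64 kb the Q140 animals sit between 1.29 and 2.61 CPM and all other animals at 3.65 or above, and at the 3 RMER4A peaks (Serpinb9f, Serpinb9h, Serpinb9g) levels are lower and the genotypes overlap more.

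The peak before Serpina3f followed the same order. It held 7.04, 8.69 and 9.74 CPM in WT (lowest, median, highest), 5.64, 7.98 and 11.8 in Msh3KO, 3.82, 5.02 and 7.33 in Q140_Msh3KO and 2.44, 2.88 and 4.09 in Q140. Q140 lay below all WT and Msh3KO animals and overlapped Q140_Msh3KO. The log2 fold change was -1.46 ± 0.18 in Q140 vs WT and 0.73 ± 0.19 in Q140_Msh3KO vs Q140. Q140_Msh3KO vs Msh3KO gave -0.66 ± 0.17, not called (edgeR, adjusted p = 0.126). The peak at -23.4 kb, in the Serpina3e-ps pseudogene, held a mean of 10.2 ± 1.74 CPM in WT and 8.18 ± 1.69 in Msh3KO, with 7.12 ± 1.81 for Q140 and 7.08 ± 1.31 for Q140_Msh3KO animals (SD, n = 6). There Q140_Msh3KO and Q140 had nearly the same level, with a log2 fold change of -0.03 ± 0.16 between them.

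Serpinb1b had peaks at its promoter, over its exon 2 and in its intron 4, and all 3 were lower in Q140. The promoter peak, chr13:33083683-33084318, held 7.04, 8.64 and 11.1 CPM in WT and 6.64, 8.48 and 9.91 in Msh3KO (lowest, median, highest). It held 4.41, 6.13 and 6.65 CPM in Q140_Msh3KO and 3.19, 4.11 and 5.20 in Q140. All Q140 animals were below all WT animals, and so were all Q140_Msh3KO animals, while Q140_Msh3KO overlapped Q140 and, at 6.64 to 6.65 CPM, touched Msh3KO. Its log2 fold changes were -1.09 ± 0.14 in Q140 vs WT and 0.50 ± 0.15 in Q140_Msh3KO vs Q140. Q140_Msh3KO vs Msh3KO gave -0.54 ± 0.14, the smallest adjusted p of the 24 peaks in this comparison and not called (edgeR, adjusted p = 0.118). The exon peak gave -0.80 ± 0.13 and the intron peak -0.82 ± 0.16 in Q140 vs WT.

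The intron 4 peak of Serpinb1b differed from the promoter in the animals lacking Msh3. Its mean was 9.70 ± 1.55 CPM in Q140_Msh3KO and 9.92 ± 2.20 in Msh3KO, a log2 fold change of -0.07 ± 0.16. The corresponding values were 6.62 ± 1.49 in Q140 and 11.8 ± 2.71 in WT. Per kb of peak, the WT means within this gene were 13.9 CPM at the promoter, 12.0 at the exon and 21.2 in the intron. A peak 25.4 kb downstream, over the ERVK repeat RMER17B2, held 1.26 ± 0.321 CPM in WT and 1.50 ± 1.36 in Q140 and gave 0.23 ± 0.35.

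Serpinb9c and Serpinb9d had weaker peaks with the same direction. The Serpinb9c peak, in its intron 2 at chr13:33157511-33157875, ran from 1.78 to 5.24 CPM in WT with a median of 2.81, and from 1.06 to 1.87 in Q140 with a median of 1.71. These ranges overlapped, and the log2 fold change was -0.99 ± 0.26. Msh3KO animals held 2.44 to 5.01 CPM with a median of 3.37, and Q140_Msh3KO animals 1.22 to 3.82 with a median of 2.55. The Serpinb9d peak in its intron 2, chr13:33194640-33194974, held 3.36, 4.43 and 4.84 CPM in WT and 1.26, 1.74 and 2.13 in Q140 (lowest, median, highest), without overlap. In Msh3KO it held 2.26, 3.05 and 4.21 CPM and in Q140_Msh3KO 1.91, 3.03 and 3.58, so these groups overlapped widely.

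At that Serpinb9d peak the log2 fold changes were -1.34 ± 0.20 in Q140 vs WT, 0.81 ± 0.20 in Q140_Msh3KO vs Q140 and -0.09 ± 0.19 in Q140_Msh3KO vs Msh3KO. It was also lower in Msh3KO than in WT by -0.45 ± 0.18, with an unadjusted p of 0.0171 and not called (edgeR, adjusted p = 1). The other Serpinb9d peaks, at -5.02 kb and in intron 4, gave -1.09 ± 0.22 and -1.30 ± 0.25 in Q140 vs WT. Their values in Q140_Msh3KO vs Msh3KO were -0.45 ± 0.21 and -0.53 ± 0.26, neither called.

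Serpinb9f, Serpinb9h and Serpinb9g each had a peak about as far before their starts, at -33.3, -30.3 and -34.2 kb, over an RMER4A repeat. RMER4A is a family of long terminal repeats left by ERVK retroviruses. The first and second of these peaks lie 6299 and 6300 bases from the RefSeq starts of the predicted genes Gm40905 and Gm40906, and overlap these genes. The promoters of Serpinb9f (chr13:33323827-33324126) and Serpinb9g (chr13:33484540-33484839), both on the plus strand of GRCm38.p6, show how alike the copies are. They were identical at 277 of 289 gap-free positions, or 95.8%, and Serpinb9d matched them at 91.6% and 92.2%. The promoter of Serpinb9h was unlike them, at 57.2% and 53.7%, where Serpina3g and Serpinb1b gave 56.2%. Capitals mark bases with no identical partner in the other copy.
Serpinb9f: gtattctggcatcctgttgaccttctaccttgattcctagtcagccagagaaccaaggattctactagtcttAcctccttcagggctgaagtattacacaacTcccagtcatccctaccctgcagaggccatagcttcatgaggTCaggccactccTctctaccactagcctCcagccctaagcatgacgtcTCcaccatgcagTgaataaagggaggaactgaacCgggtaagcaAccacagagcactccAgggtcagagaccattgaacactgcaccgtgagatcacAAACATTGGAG
Serpinb9g: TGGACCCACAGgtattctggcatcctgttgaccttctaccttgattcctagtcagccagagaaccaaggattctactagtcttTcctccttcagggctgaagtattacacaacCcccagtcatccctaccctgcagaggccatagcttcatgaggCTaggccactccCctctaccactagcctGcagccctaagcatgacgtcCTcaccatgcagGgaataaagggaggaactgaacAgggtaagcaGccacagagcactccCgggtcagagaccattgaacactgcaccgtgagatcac

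Reads from near-identical copies can fall on the wrong copy, and how the authors treated reads that map to several places is not given in the sources used here. How alike the 3 RMER4A peaks are in sequence was not measured, so which copy their reads came from is uncertain. The Serpinb9f peak held 2.05, 2.88 and 4.33 CPM in WT and 0.261, 1.11 and 1.65 in Q140 (lowest, median, highest), and 1.99, 2.63 and 3.87 in Msh3KO and 0.663, 1.52 and 2.99 in Q140_Msh3KO. The Serpinb9g peak held 1.78, 2.71 and 3.31 CPM in WT and 0.472, 0.923 and 1.58 in Q140, and 1.31, 2.44 and 4.21 in Msh3KO and 0.905, 1.91 and 2.19 in Q140_Msh3KO. At both, every Q140 animal was below every WT animal. At the Serpinb9h peak, with 1.41 to 3.88 CPM in WT and 0.574 to 2.01 in Q140, the groups overlapped.

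The log2 fold changes in Q140 vs WT were -1.59 ± 0.32 for the RMER4A peak of Serpinb9f, -1.24 ± 0.31 for Serpinb9h and -1.53 ± 0.29 for Serpinb9g. In Q140_Msh3KO vs Q140 they were 0.72 ± 0.35, 0.67 ± 0.32 and 0.83 ± 0.31. In Q140_Msh3KO vs Msh3KO they were -0.76 ± 0.30, -0.64 ± 0.29 and -0.66 ± 0.27, and none was called (edgeR, smallest adjusted p = 0.468). In Msh3KO vs WT they lay between -0.10 and 0.08.

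The remaining distal peaks were weak. The Serpinb9h peak at 37.2 kb carries no repeat and overlaps the gene Gm19155 by RefSeq. It held 1.70, 2.17 and 3.29 CPM in WT and 0.581, 0.855 and 2.72 in Q140 (lowest, median, highest), and only Q140 F1 lay within the WT range. Its log2 fold changes were -0.97 ± 0.29 in Q140 vs WT and -0.61 ± 0.29 in Q140_Msh3KO vs Msh3KO, the latter not called. The peak nearest to the start of Serpinb9h, at -21.65 kb over an L1Md_T element, held a median of 2.27 CPM for WT, 1.40 for Q140, 1.54 for Msh3KO and 1.58 for Q140_Msh3KO animals. The peak nearest to the start of Serpinb9f, at -18.05 kb over L1Md_A, held medians of 0.966, 0.698, 1.19 and 0.840 CPM in the same order, and the genotypes overlapped. Its highest value, 5.02 CPM, came from Q140_Msh3KO M1, the library that stood apart in its highest peaks.

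The table holds 11 tested RMER4A peaks in all, and the 3 serpin peaks had the lowest values in Q140 vs WT. The other 8 had a median of -0.07, with 3 called lower and -0.75 as the lowest. The serpin genes also had 7 peaks over L1Md_T or L1Md_A, young LINE-1 elements present in many near-identical copies. None of the 7 was called by edgeR or DESeq2 in Q140 vs WT, and limma-voom called 1, the peak of Serpinb9h at -21.65 kb. They ran from -0.76 to 0.08 with a median of -0.12. Of 4388 other L1Md_T peaks 5 were called lower, at a median of -0.06, and of 2652 other L1Md_A peaks 1 was, at a median of -0.07. All 12 serpin peaks without a repeat had values below 0, from -1.96 to -0.49, and 11 of them were called lower. Of all tested peaks, 6.11% were called lower. The serpin genes were chosen on this comparison, so nothing is read from how their peaks rank among other peaks of a repeat family.

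**Figure D2:**
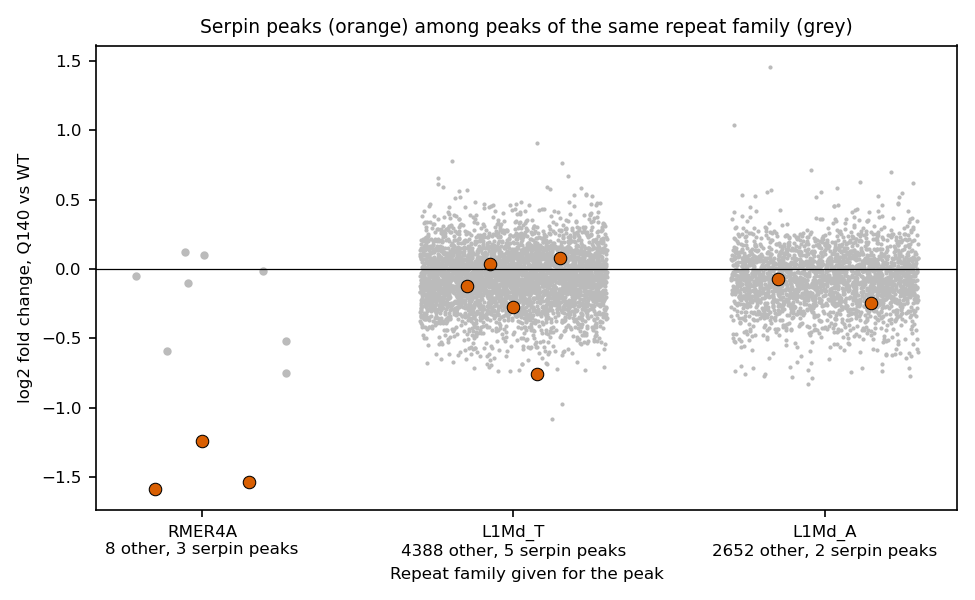
log2 fold change in Q140 vs WT (vertical axis) of every tested peak over an RMER4A, L1Md_T or L1Md_A repeat, serpin peaks in orange and all others in grey with random horizontal scatter. The 3 RMER4A serpin peaks lie below the 8 other RMER4A peaks, and the 7 L1Md serpin peaks lie among the 4388 and 2652 others around 0. The serpin genes were chosen on this comparison.

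Over all 24 peaks, 14 were called lower in Q140 than in WT, while 6.11% of all tested peaks were, and 0 were called higher, against 4.20% of all. Since the genes were selected on this comparison, nothing is read from that share. DESeq2 also called 14 and limma-voom 15. The median was -0.85 over the 24 peaks and -0.01 over all tested peaks. In 9 of the 24, all 6 Q140 animals lay below all 6 WT animals, which held for 3.00% of all peaks. In Q140_Msh3KO vs Q140, on which the genes were also selected and from which likewise nothing is read, 1 peak was called higher, the Serpina3g start peak, against 0.310% of all peaks, and the median was 0.46 against 0.00. DESeq2 called 2, the other being the peak before Serpina3f, and with 1 animal left out in turn edgeR called 1 to 3, with 3 without Msh3KO F2 or Msh3KO F3. The start peak was also the only one of the 24 with all Q140_Msh3KO animals above all Q140 animals, against 0.641% of all peaks. Of the 14 peaks lower in Q140, 13 had a Q140_Msh3KO mean between those of Q140 and Msh3KO, and the Serpina3e-ps peak was the exception.

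**Figure D3:**
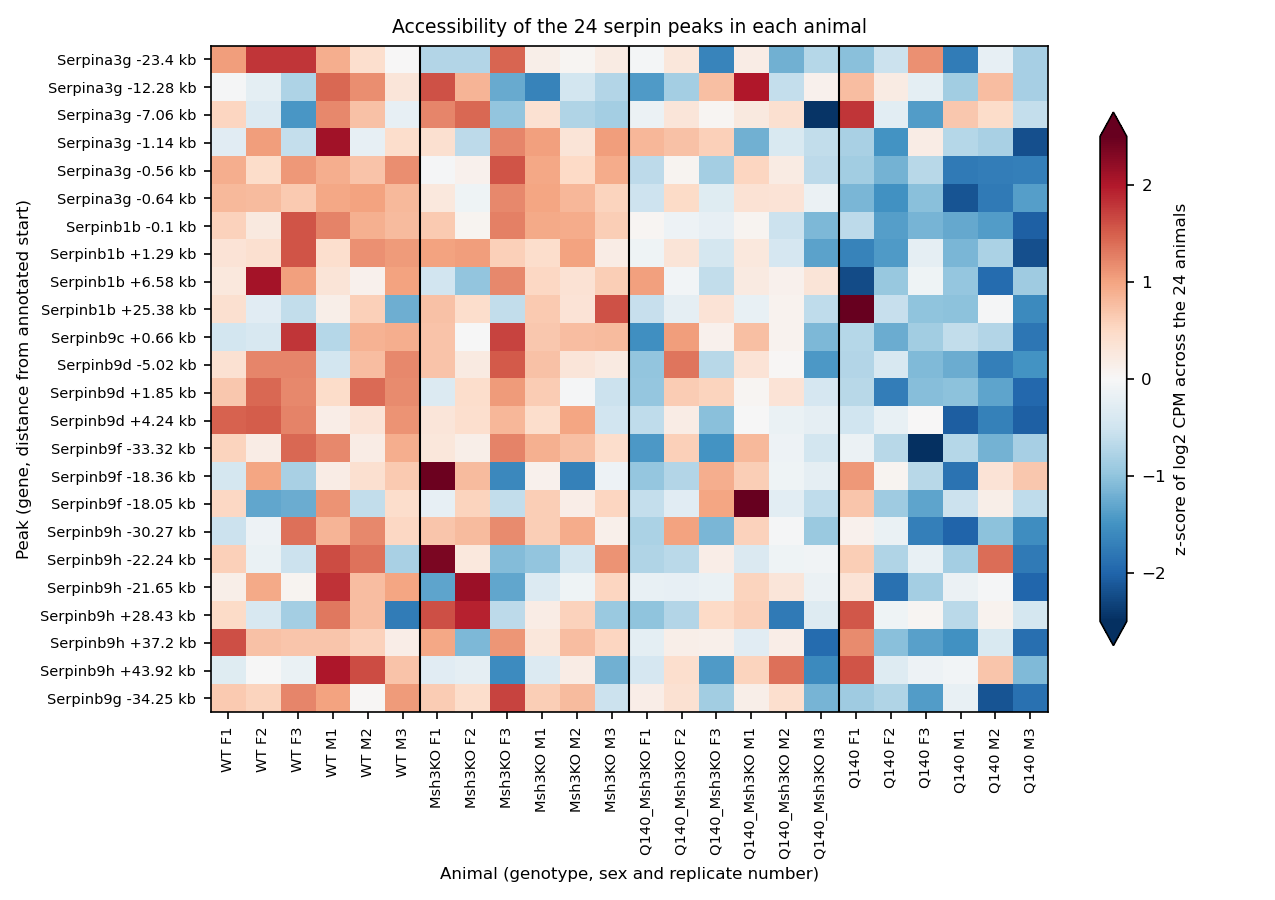
z-scores of log2 CPM (colour, red high and blue low) of the 24 serpin peaks (rows) in each of the 24 animals (columns, grouped by genotype). The Q140 columns are blue at the Serpina3g start peak, the Serpina3f-side peak, the first 3 Serpinb1b peaks, Serpinb9d and the RMER4A peaks, and mixed at the L1Md peaks.

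Q140_Msh3KO vs Msh3KO asks what the expanded allele does to these regions where Msh3 is missing. None of the 24 peaks was called by edgeR, DESeq2 or limma-voom, against 0.116% of all peaks called by edgeR in either direction. At an unadjusted p under 0.05, 10 of the 24 were lower, against 4.35% of all peaks, and none was higher. The median was -0.41 over the 24 peaks and -0.01 over all peaks, and 20 of the 24 lay below 0, against 51.7% of all tested peaks. All 14 peaks that were lower in Q140 had negative values here as well, from -0.76 to -0.07. For no peak did all 6 Q140_Msh3KO animals lie below all 6 Msh3KO animals, against 0.300% of all peaks. With Q140_Msh3KO M1 left out, 1 peak was called lower, the one before Serpina3f.

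**Figure D4:**
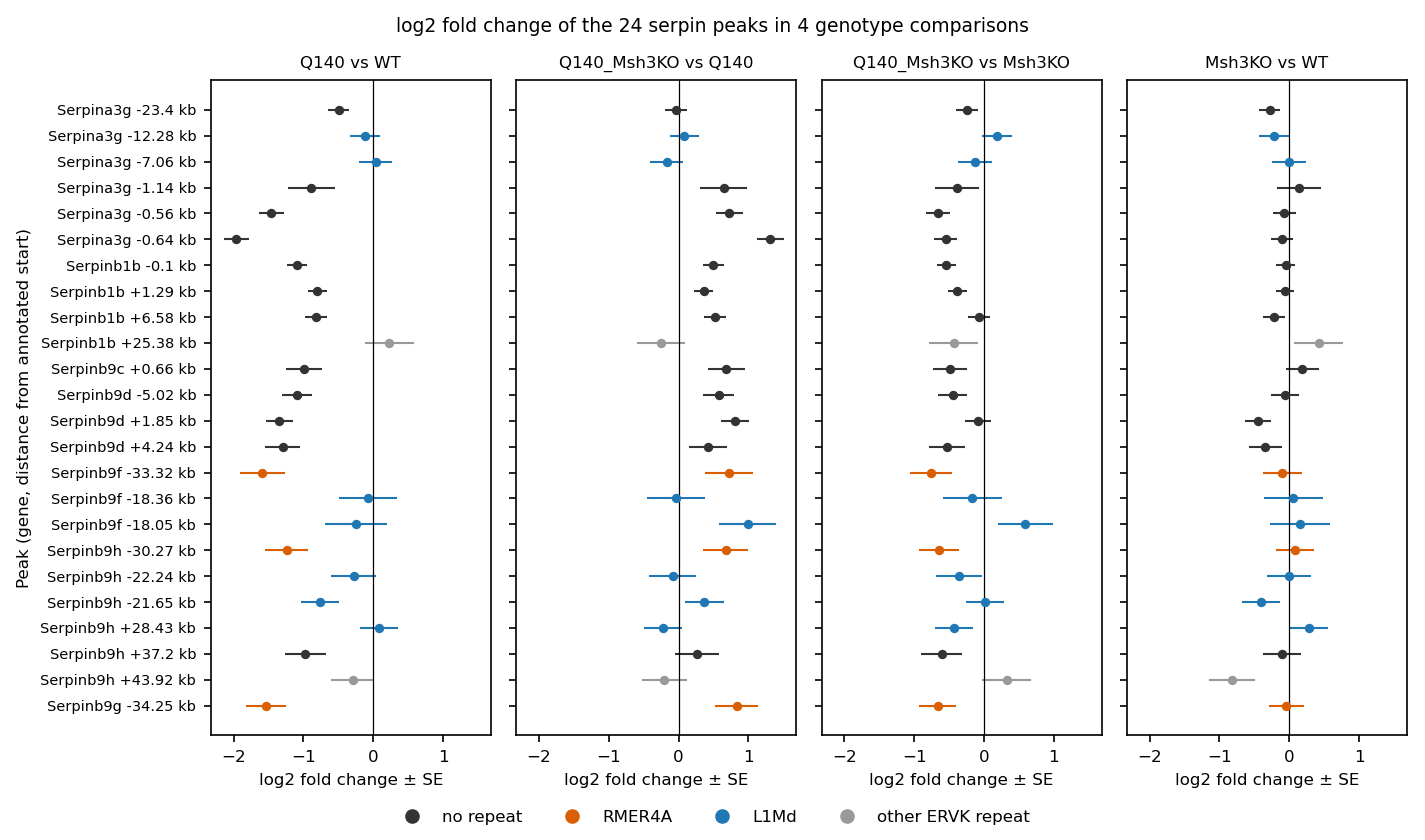
log2 fold changes ± SE (horizontal axes) of the 24 serpin peaks in 4 genotype comparisons, coloured by the repeat under the peak. In Q140 vs WT all peaks without a repeat or over RMER4A lie below 0, from -1.96 to -0.49. In Q140_Msh3KO vs Msh3KO they lie between -0.76 and -0.07, and in Msh3KO vs WT between -0.45 and 0.18, most of them below 0.

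Msh3KO vs WT asks what loss of Msh3 alone does. None of the 24 peaks was called by edgeR, DESeq2 or limma-voom, and 0.0130% of all peaks were called by edgeR. At an unadjusted p under 0.05, 2 of the 24 were lower, against 1.55% of all peaks, and none was higher. They were the Serpinb9d intron 2 peak given above and the IAPEz-int peak 43.9 kb after the start of Serpinb9h, at -0.82 ± 0.33. The 14 peaks lower in Q140 had a median of -0.09 in this comparison and ran from -0.45 to 0.18, with 12 of the 14 below 0. Over all 24 peaks the median was -0.06, against 0.00 over all tested peaks. Of the 24, 17 lay below 0, against 49.5% of all tested peaks. The WT animals of this comparison took part in the choice of the genes.

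Sex was tested in the same fit. None of the 24 peaks was called between females and males by edgeR, DESeq2 or limma-voom, against 0.169% of all peaks by edgeR. At an unadjusted p under 0.05 there was 1, against 4.41%: the Serpinb9d intron 4 peak, higher in females by 0.36 ± 0.18. The Q140 effect in females minus males was called for none of the 24 peaks and for 0% of all peaks, by edgeR, DESeq2 or limma-voom. At an unadjusted p under 0.05 there was 1 of the 24, against 3.29%, the IAPEz-int peak of Serpinb9h. The Q140 effect at the 14 lower peaks ran from -1.70 to -0.53 in females and from -2.28 to -0.45 in males, and all 14 were below 0 in each sex. The X-chromosome share of Q140 F2 given above lay below that of every other female and of every male, so it matched neither sex. The labelled sex of this library was not checked on Y-chromosome peaks. Without Q140 F2, leaving 2 Q140 females, the ranges were -1.78 to -0.46 in females and -2.33 to -0.50 in males, again with all 14 below 0. No serpin peak was then called by edgeR between the sexes or in the interaction. At an unadjusted p under 0.05 in edgeR there were 0 and 2 of the 24. The shares of all tested peaks in this smaller fit are not given here, so nothing is read from these counts. With Q140 F2 kept, the shares were 4.41% and 3.29%. The start peak then gave -1.60 ± 0.28 in females and -2.33 ± 0.27 in males. In 21 of the 24 peaks the female minus male difference was above 0, beside 70827 of all 146155 tested peaks. The median was 0.44 over the 24 peaks and -0.01 over all peaks. Without Q140 F2 the difference was above 0 in 22 of the 24, at a median of 0.63 against 0.02 over all peaks.

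Neighbouring peaks in the clusters, and up to 20 kb beyond their outer gene ends, were compared with the serpin peaks. In and beside the Serpina3 cluster of 302 kb, 9 peaks belonged to other genes, among them Serpina3h, Serpina3j, Serpina3m and Serpina3n. Some of the Serpina3n peaks lay past the end of the cluster. In Q140 vs WT, edgeR, DESeq2 and limma-voom called none of the 9, with 1 of them at an unadjusted p under 0.05 in edgeR. The Serpina3n peak at its start, 170.6 kb from that of Serpina3g, gave 0.35 ± 0.29. Serpina3n is the family member best known as a marker of reactive astrocytes. In and beside the Serpinb cluster of 1161 kb, 20 peaks belonged to other genes. There edgeR called 1 lower, at -30.1 kb from the start of Serpinb6b, with a log2 fold change of -0.59 ± 0.17. It called 0 higher, and 3 of the 20 had an unadjusted p under 0.05 in edgeR. The lowest value of the 20, in intron 2 of Serpinb1c, was -0.77 ± 0.31, not called, and the highest, by Gm6093, was 0.45 ± 0.47. The start peak of Serpinb9, the granzyme B inhibitor gene, gave -0.10 ± 0.20, that of Serpinb6a 0.02 ± 0.12 and the peak before Serpinb1a -0.07 ± 0.18. The median over the 9 and the 20 peaks was -0.02 and -0.08, against -0.69 over the 6 Serpina3g peaks and -0.90 over the 18 peaks of the Serpinb genes. The serpin genes were chosen on this comparison and their neighbours were not, so nothing is read from the difference.

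**Figure D5:**
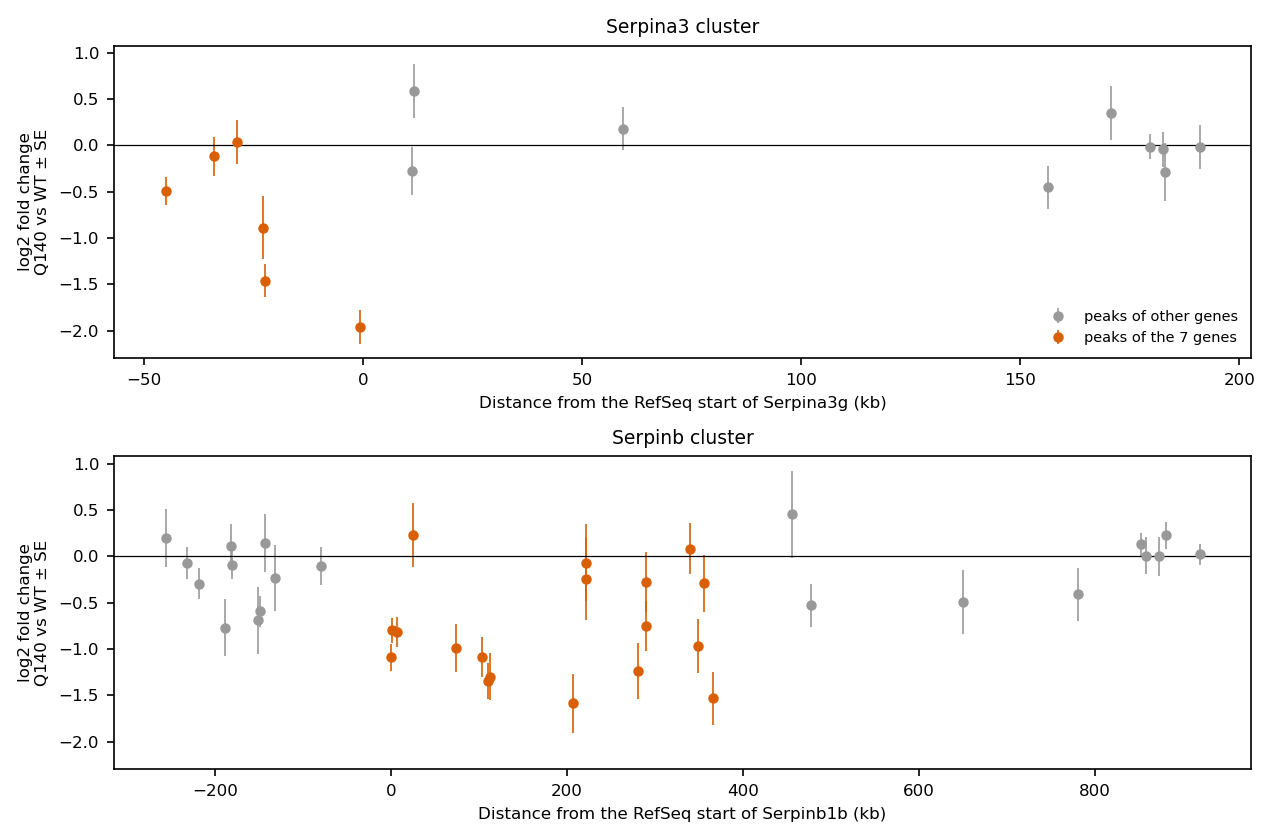
log2 fold change ± SE in Q140 vs WT (vertical axes) of all tested peaks in and just beside the Serpina3 and Serpinb clusters, against distance in kb from the RefSeq starts of Serpina3g and Serpinb1b. Peaks of the 7 genes (orange), which were chosen on this comparison, include the lowest values in both clusters. Peaks of other genes (grey) lie between -0.77 and 0.59.

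Other serpins and linked gene groups were counted in the same fit, to be read against the 6.11% of all tested peaks called lower and the 4.20% called higher in Q140 vs WT. The peaks named are the called ones of largest change in each group, and no group was tested against the rest of the table. Of 40 peaks near 13 other clade A serpins of the Serpina cluster, 2 were called lower in Q140 and 0 higher, and the median was -0.14. They lay by Serpina10, at -0.76 ± 0.18, and Serpina1a, at -0.62 ± 0.14. Of 15 peaks near 7 other clade B serpins of the Serpinb6 to Serpinb9 cluster, 1 was lower. In the other clade B cluster, 2 of 34 peaks were lower and 1 higher, with Serpinb12 falling from 10.2 to 4.82 CPM (-1.09 ± 0.16). Of 75 peaks of serpins outside these clusters 7 were lower and 2 higher. A distal peak at -157 kb from Serpine2, an inhibitor of thrombin made in brain, fell from 16.0 to 8.17 CPM (-0.97 ± 0.15), and it was called higher in Q140_Msh3KO vs Q140 (0.61 ± 0.15).

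Among proteases that such serpins are known to act on, 69 peaks near 19 genes gave 7 lower and 1 higher in Q140, at a median of -0.02, beside the same 6.11% and 4.20% of all peaks. A peak in intron 3 of Ctss, the lysosomal cathepsin S, fell from 4.65 to 1.76 CPM (-1.38 ± 0.23). A peak at -92.7 kb from Ctsc, the cathepsin that activates granzymes, fell from 9.12 to 4.12 CPM (-1.15 ± 0.17). Of 107 peaks near 23 genes of the interferon pathway, 5 were lower and 1 higher, at a median of 0.00, again beside 6.11% and 4.20% of all peaks. A peak at -13.1 kb from Ifngr1, a chain of the interferon gamma receptor, fell from 10.02 to 5.39 CPM (-0.90 ± 0.16), and a peak at -14.5 kb from Jak2, a kinase of that receptor, rose from 2.32 to 3.96 (0.78 ± 0.19). In Q140_Msh3KO vs Msh3KO, Msh3KO vs WT and female vs male, none of the 340 peaks of these 6 groups was called by edgeR, DESeq2 or limma-voom. At an unadjusted p under 0.05, edgeR found 23, 9 and 10 of the 340, beside 11220, 4875 and 6446 of all 146155 tested peaks.

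The peaks most like the Serpina3g start peak were sought by Pearson correlation of log2 CPM over the 24 libraries, which share their genotypes. The highest coefficient outside the 7 genes was 0.959, for an intronic peak on chromosome 5, 19.7 kb from the annotated start of Rgs12. How far this peak lies from Htt, the knock-in gene, was not measured. Next came 0.956 for peaks nearest to Gm6455 and Zmat4, 0.953 for Bambi and 0.952 for Ldah. Each of these 5 peaks was lowest in Q140 and had its Q140_Msh3KO mean between Q140 and Msh3KO. They were picked for their likeness to the start peak, so nothing is read from this order. At Rgs12 the mean was 21.1 CPM for WT, 21.3 for Msh3KO, 14.1 for Q140_Msh3KO and 6.97 for Q140 animals. Among the serpin peaks the peak before Serpina3f came highest, at 0.948, followed by the Serpinb1b promoter at 0.878 and the Serpinb9d intron 2 peak at 0.843. The L1Md peaks ranged from -0.07 to 0.381.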

How the data were processed

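The authors deposited 1 table of raw read counts, in which 1 set of peaks, combined over the data per the file name, was counted in 24 libraries. The submitters' processing notes name GRCm38 as the build and, among tools, MACS2, featureCounts, BWA, Picard and SAMtools. Not given in the sources used here are versions, settings, the handling of reads with several mapping places and any shift of cut sites. Misplaced reads would bear most on near-identical copies. Peaks passing edgeR's filterByExpr (minimum count 10) were fitted over all libraries with genotype and sex (R 4.3.3, edgeR 4.0.16, TMM scaling, robust quasi-likelihood F test). DESeq2 1.42.0, limma-voom (limma 3.58.1), other scalings, no filter and libraries left out were alternatives. Labels number the samples as replicates and do not describe the animals further, so p-values measure the spread between these samples. Gene names are the authors' and were checked against RefSeq (GRCm38.p6), the source of the promoter sequences. The genes and lists were chosen with earlier results of these data known. Peaks named singly are the one nearest each start, the 12 called peaks of largest change, up to 3 called peaks per gene list and the 5 peaks most alike; others were chosen after their values were seen. Correlations used log2 CPM with a prior count of 2. The scripts were tested on simulated data.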

Additional observations from a re-analysis of the deposited data

Results flagged for a closer look

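Among 56 groups of 6 animals at the 14 peaks named singly, 5 held an animal far from the others, its gap to the nearest one, as a share of the group's range, being above Dixon's critical value. Chance gives about 1 in 20 such groups. Msh3KO F3 held 5.12 CPM at the Serpinb9d peak at -5.02 kb, against 3.09 to 3.78 in the other Msh3KO animals. Q140_Msh3KO M1, a library that also stood apart in its highest peaks, held 5.02 CPM at the L1Md_A peak of Serpinb9f at -18.05 kb, against 0.679 to 1.66. At the Serpinb9h peak at 37.2 kb, 3 genotypes had such an animal. WT F1 held 3.29 CPM against 1.70 to 2.20, Q140 F1 held 2.72 against 0.581 to 1.30, and Q140_Msh3KO M3 held 0.566 against 1.36 to 1.69.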

How the results depend on the processing

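In the 3 tested comparisons (Q140_Msh3KO vs Msh3KO, Msh3KO vs WT, female vs male) the Serpina3g start peak kept its direction and was not called in any setting run. Q140 vs WT and Q140_Msh3KO vs Q140, on which the genes were chosen, are given as values only. The log2 fold changes with 1 animal left out were -2.05 to -1.85 (Q140 vs WT), 1.21 to 1.41 (Q140_Msh3KO vs Q140), -0.64 to -0.41 (Q140_Msh3KO vs Msh3KO; edgeR, adjusted p from 0.0752 to 0.517), -0.23 to -0.02 (Msh3KO vs WT) and -0.15 to -0.02 (female vs male). Lower calls in Q140 vs WT ran from 12 to 15 of 24 with 1 animal left out. In Q140_Msh3KO vs Q140, 2 in place of 1 were called with no filter on low counts and without sex in the model, each adding the Serpinb9d intron 2 peak, and 2 with DESeq2, adding the peak before Serpina3f. With 1 animal left out the count was 1 to 3, with 3 without Msh3KO F2 or Msh3KO F3 and 2 without WT M2 or Q140_Msh3KO F1, F3 or M3. The causes were not tested. In Q140_Msh3KO vs Msh3KO it was 0 to 1. Leaving out Q140 F2 and Q140_Msh3KO M1 together, and the split by sex without Q140 F2, were chosen after seeing the data. With both left out, the calls over all peaks in Q140_Msh3KO vs Q140 were 199 in place of 773. With 1 animal left out, calls over all peaks in Q140_Msh3KO vs Msh3KO ran from 15 to 368, against 169. The labels number animals 1 to 3 within each sex and genotype. Among 36 same-numbered pairs 11 had r over 0.1 (r from -0.44 to 0.45), so the numbers were not taken as pairing, although 13 of 24 animals were closest to their own number, against 8 at equal odds. With a replicate block 14 peaks were called in Q140 vs WT, 1 in Q140_Msh3KO vs Q140 and 0 in the other 2 genotype comparisons, and the start peak gave -1.96, 1.30, -0.54 and -0.12. The counts of 2 to 139 per peak and library limit what can be seen at the weaker Serpinb9 peaks.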
